A study of Caenorhabditis elegans with 4 samples.

Results

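The transcriptome described here is that of wild-type (N2) *C. elegans* that had been kept for 14 days at 25 °C on plates without remofuscin, the negative controls (NC, 0 µM) of a lifespan study. It was measured on 2 of the 4 arrays of the series, 1 from each of 2 independent experiments, and these arrays were chosen by the letters NC in their sample titles. The other 2 arrays hold worms kept on 200 µM remofuscin for the same time, and they are used here only where the spread between experiments is described. Both groups were whole worms on *E. coli* OP50 and peptone-free agar. The study's lifespan assays used the solvent DMSO on control plates and the drug FUdR on all plates, and its array methods name neither. The array labels name no drug that blocks reproduction, so that embryos or larvae on the plates cannot be told apart from adults in the extracted RNA. Each extract of total RNA came from a pool of worms and was hybridized in 1 colour to an Agilent oligonucleotide array, and 1 slide carried all 4 arrays.

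By the second week at this temperature, hermaphrodites have passed their peak of self-reproduction. Background knowledge of ageing worms includes large stores of yolk lipoprotein that the intestine keeps producing after egg laying declines, a cuticle whose collagens were mostly made before each larval moult, and an intestine exposed to bacterial food that expresses lysozymes, lectins and detoxifying enzymes. Transcripts of the whole animal come from the gonad, intestine, muscle, hypodermis and neurons together. In such a sample, fewer cells of a type and less RNA per cell cannot be told apart.

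Signals are given as multiples of the 75th percentile of each array, after background correction by the scanner software. That percentile was 603 intensity units on NC replicate 1 and 786 on NC replicate 2. Of 43603 probes, 34320 were named, and 19813 genes were ranked within each array by their brightest probe, with rank 1 as the brightest. The software called a probe well above background for 14734 genes on NC replicate 1 and 14598 on NC replicate 2. A gene none of whose probes was so called on an array is described as undetected there, which sets an upper limit on its signal and does not show its absence. As a description across genes, which share the same 2 arrays, the ranks of the arrays had a Spearman rho of 0.981, and the median gene lay 730 ranks apart between them. No array had a saturated spot (0 on each). The brightness of a probe depends on its own sequence as well as on the transcript, so a rank is a rank of signal and not of molecules per worm. Among 4606 genes with several probes whose ranked probe was well above background on both arrays, the brightest and dimmest probes lay a median of 2.01 apart on the log2 scale, and for 30.9% of them more than 10-fold apart. Probes of near-identical genes (the msp, histone, actin, hsp-16 and vit families) may share signal, and their single-gene values are uncertain. With 2 arrays, both values are printed in place of a mean and SD, NC replicate 1 before NC replicate 2 where a pair stands without labels, and each pair shows its own spread.

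Signal fell steeply with rank. The brightest gene of NC replicate 1 gave 433 times the 75th percentile, and that of NC replicate 2 gave 337 times. At rank 100 the signals were 106 and 81.4, at rank 1000 they were 19.3 and 14.8, and at rank 10000 they were 0.174 and 0.15. The first 100 genes of each array held 18.7% and 18% of the summed signal of all ranked genes, and the first 1000 held 63.1% and 59.3%.

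Ribosomal proteins, the structural parts of the translation machinery, filled the first places. By mean log2 signal over both arrays, 15 of the first 30 genes and 40 of the first 100 belonged to the list of cytosolic ribosomal protein genes, and 63 of the 64 genes on that list were in the top 10% of both arrays. Of all ranked genes, 8.24% were in the top 10% of both. The brightest, rps-20, held rank 1 on both arrays with signals of 433 and 337. It was followed by rps-14 (F37C12.9.2), at 320 and 263 and rank 2 on both, and by rpl-39 (C26F1.9.1), at 299 and 200. Genes rpl-36A, rpl-27A, rpl-35A and rplp-2.2, whose names the list's pattern did not take, also lay among the first 30. The exception among the 64 was rpl-42, with 0.0347 on NC replicate 1 and 0.0112 on NC replicate 2, which was well above background on NC replicate 1 alone.

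The rest of the first 30 held other bright transcripts. Y82E9BR.3 stood at place 3 by mean signal (250 and 240), and its arrays were 1.04-fold apart. Gene icd-2, a subunit of the complex that binds nascent polypeptides at the ribosome, had signals of 204 and 192, and ndk-1, a nucleoside diphosphate kinase, had 153 and 198. The transthyretin-related ttr-51 reached 192 and 130. Ubiquitin fusion genes were represented by ubq-2 (170 and 130) and fau-1 (185 and 133), each of which joins a ubiquitin or ubiquitin-like domain to a ribosomal protein. The ribosomal RNA genes rrn-3.1 (179 and 133) and rrn-1.1 (158 and 120) also appeared there. Among stress proteins, only sip-1, a small heat shock protein known from oocytes and embryos, entered the first 30, with signals of 132 and 163 and ranks 55 and 12. D1054.10 (ranks 13 and 41) and R05H5.3 (ranks 16 and 56) carry no name beyond their sequence names in the gene table. Of the first 30 places of NC replicate 1, 19 were also among the first 30 of NC replicate 2, and 19 of the 30 genes remained when a gene was ranked by the mean of its probes in place of the brightest.

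**Figure D1:**
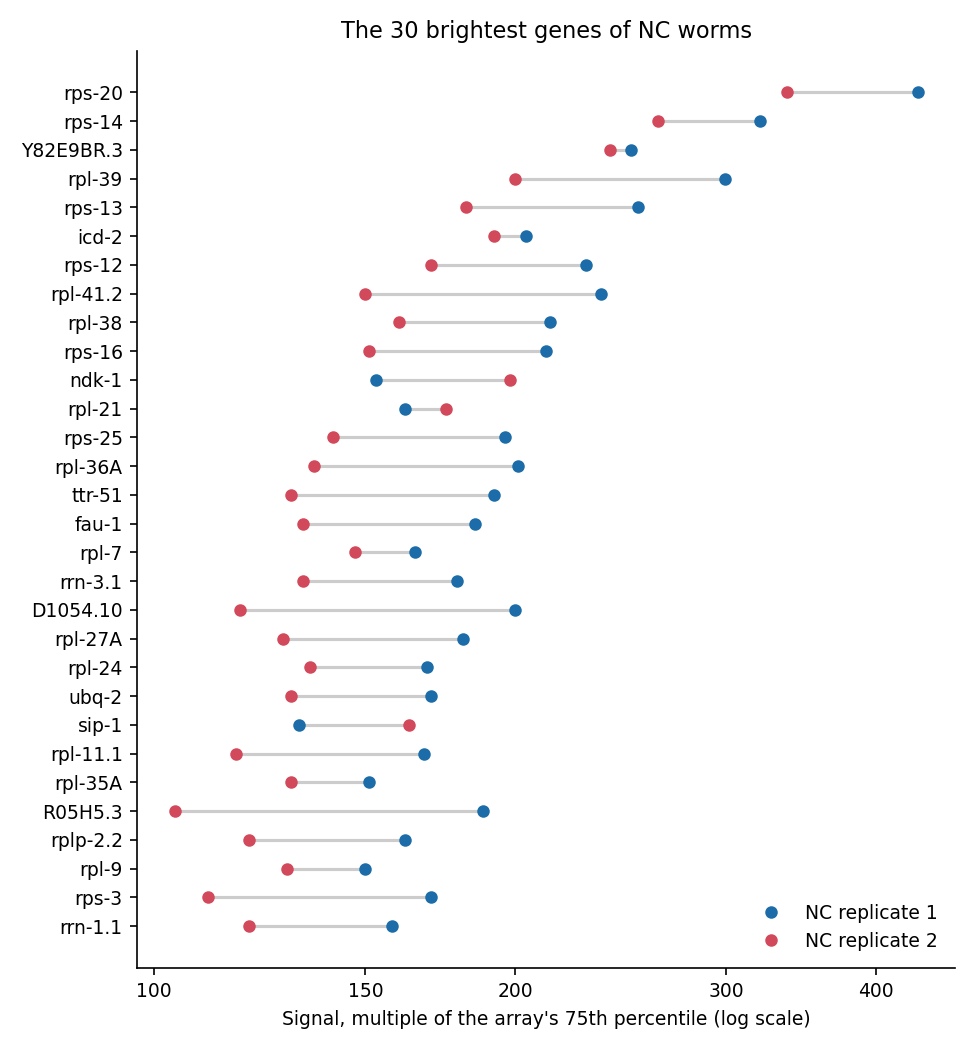
Signals of the 30 brightest genes of NC worms by mean log2 signal, as multiples of the 75th percentile of each array (log axis). Each row is a gene, blue points are NC replicate 1 and red points NC replicate 2. Signals reach 433, and most genes were brighter on NC replicate 1, with ndk-1, rpl-21 and sip-1 as the exceptions.

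Other components of growth and energy metabolism ranked just below. Of 45 nuclear genes of the respiratory chain and ATP synthase, 28 were in the top 10% of both arrays. The electron carrier cyc-2.1 gave 111 and 83.0, the ATP synthase subunit asg-1 gave 120 and 62.7, and atp-5 gave 90.3 and 69.0. Of 32 proteasome genes, 26 were in the top 10%, led by pas-3 (89 and 63.0), pas-5 (77.1 and 43.2) and pbs-4 (74.2 and 40.9), and all 32 were well above background on both arrays. Histone genes had 22 of 47 in the top 10%, with his-60 at 163 and 99.3 and the replacement variant his-72 at 95.9 and 129. The gene table matched none of the 29 probes whose identifiers begin with MTCE. These unnamed probes had signals between 0.00432 and 261 on NC replicate 1 and between 0.00402 and 183 on NC replicate 2, and 28 of them were well above background on both.

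Yolk transcripts were among the brightest of the worm. The vit genes encode vitellogenins, which the hermaphrodite intestine secretes and oocytes take up. Of 6 symbols in the gene table, 5 had a ranked probe, all 5 were well above background on both arrays, and 4 were in the top 10% of both. Gene vit-5 (C04F6.1.1) gave 95.0 on NC replicate 1 and 165 on NC replicate 2, at ranks 115 and 10. Gene vit-2 (C42D8.2a.1) gave 85.9 and 120, at ranks 149 and 34. The signals of vit-4 were 38.6 and 56.7, and those of vit-6, the precursor of a smaller yolk protein, were 15.1 and 31.8. The dimmest, vit-1, gave 3.76 and 8.46, at ranks 3515 and 1915. All 5 were higher on NC replicate 2, by 1.40-fold for vit-2 at the least and 2.25-fold for vit-1 at the most. The yolk receptor of oocytes, rme-2, gave 63.6 and 82.2, at ranks 243 and 97.

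Genes of the late oocyte and its eggshell lay close behind yolk. Of 35 such genes, 19 were in the top 10% of both arrays, and the family median stood at the 91.0th percentile on NC replicate 1 and the 96.3rd on NC replicate 2. The highest was perm-2, which is needed for the permeability barrier of the egg, at 93.7 and 118. The chondroitin proteoglycans of the inner eggshell followed, with 93.8 and 94.3 for cpg-1 and 92.2 and 82.9 for cpg-2. The RNA-binding proteins spn-4 (43.8 and 71.9) and puf-5 (34.5 and 49.7) act in oocytes and early embryos, and egg-1 (10.1 and 20.3) encodes a receptor-like protein of the oocyte surface that sperm need. Only cpg-19 was undetected on both arrays. Among all ranked genes, 23.6% were undetected on both.

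Genes for germ granules and germline RNA binding were all detected, with 39 of 39 well above background on both arrays. Their median rank lay at the 82.0th and 86.1st percentiles, and 8 were in the top 10% of both arrays (14 when NC replicate 2 was taken alone). The maternal zinc-finger gene pos-1 led with 67.1 and 77.6, before the Vasa-related helicase glh-1 with 38.2 and 60.2 and mex-3, a KH-domain repressor of maternal mRNAs, with 14.8 and 32.5. The Piwi protein gene prg-1 gave 14.3 and 24.2. Of 36 genes of meiotic chromosomes, 35 were well above background on both arrays, and 3 were in the top 10% of both. These were him-3 (16.6 and 11.1), a protein of the chromosome axis, syp-6 (10.2 and 14.1), of the synaptonemal complex, and zhp-1 (12.2 and 10.2), a RING-finger protein of meiotic chromosomes.

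Sperm transcripts were detected at day 14, at levels that differed by family. Major sperm proteins, the cytoskeletal and signalling proteins of nematode sperm, had all 27 ranked genes well above background on both arrays and 11 in the top 10%. Their signals ran between 0.605 and 28.1 on NC replicate 1 and between 0.311 and 18.8 on NC replicate 2. The 3 highest were msp-76 (28.1 and 18.8), msp-81 (26.7 and 18) and msp-78 (24.7 and 12.3). The ssp, ssq, sss and nspd families stood lower. None of their 27 genes was in the top 10% of both (0 genes), although 26 were well above background on both arrays, and nspd-2, the highest, gave 5.77 and 2.43. The 39 spermatogenesis genes, which include the spe and fer genes named for sterile mutants, had a median at the 47.3rd and 47.5th percentiles and 0 in the top 10%. Highest among them were fog-1, a translational regulator of the sperm fate, at 2.42 and 5.48, and spe-48 at 3.32 and 3.93.

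**Figure D2:**
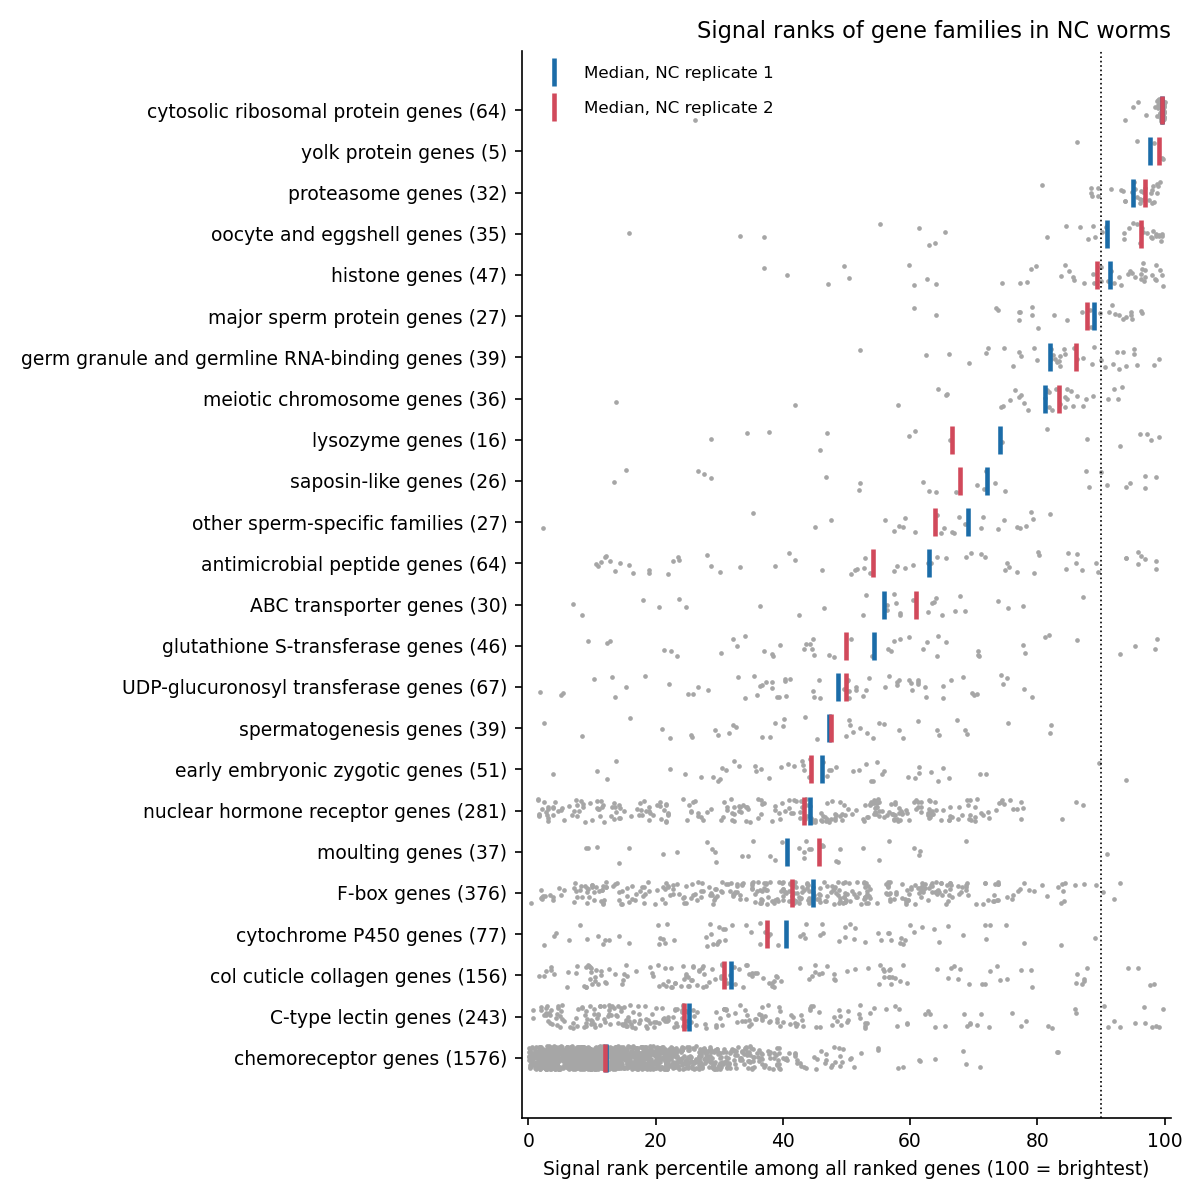
Signal rank percentile of each gene (grey points, mean of both NC arrays) in 24 gene families, with the family median on NC replicate 1 (blue bar) and NC replicate 2 (red bar). The number of ranked genes stands beside each name and the dotted line marks the top 10%. Medians run between the 99.6th percentile for ribosomal proteins and the 12.2nd and 12th for chemoreceptors.

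Genes that mark embryonic and larval stages had lower median ranks than those of oocytes. The early zygotic list holds endoderm and mesoderm regulators of the early embryo and genes named for early or SKN-1-dependent expression. Its 51 genes had a median at the 46.1st and 44.5th percentiles, and only pes-9 (14.7 and 14.2) was in the top 10% of both arrays. Of the 51, 6, or 11.8%, were undetected on both arrays, beside 23.6% of all ranked genes. The moulting list holds genes that act when larvae shed the cuticle, together with the 22 ranked ptr genes of Patched-related proteins. Of its 37 genes, 0 were in the top 10% of both arrays and 7, or 18.9%, were undetected on both. All 7 were ptr genes, and each other gene of the list was well above background on at least 1 array. The highest of the list was ptr-2, at 7.25 and 12.9.

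Cuticle collagens were mostly dim. Of 156 col genes, 4 were in the top 10% of both arrays, 87 were well above background on both, 20 on 1 array, and 49, or 31.4%, on neither. The share of undetected genes was thus above the 23.6% of all ranked genes. The 4 bright genes were col-63 (42.1 and 47.2), col-122 (31.3 and 33.5), col-140 (20.5 and 19.3) and col-106 (ranks 889 and 1386). The family median was 0.0385 on NC replicate 1 and 0.0296 on NC replicate 2. Collagens whose mutants change body shape, such as dpy, rol and sqt genes, had 0 of 21 in the top 10%. Of these, 5, or 23.8%, were undetected on both arrays, near the share of all ranked genes. Their highest were dpy-14 (6.04 and 3.90) and dpy-17 (5.76 and 5.02), while rol-6, known from dominant rolling mutants, gave 0.034 and 0.0198. The adult collagen col-19 gave 2.07 and 1.66. Basement membrane collagens and laminins, which are not cuticle proteins, had 8 of 9 genes well above background on both arrays. Their highest was cle-1, a collagen related to types of the vertebrate basement membrane, at 1.22 and 2.18, and none was in the top 10% (0 of 9).

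Immune families differed in how much of each was detected. Lysozymes, which degrade bacterial cell walls, had 15 of 16 genes well above background on both arrays and 5 in the top 10%. Gene lys-7 gave 76.5 and 53.8, ilys-5 gave 40.1 and 31.8, and lys-1 gave 37.1 and 21.8. Saposin-like genes, some of which encode pore-forming peptides of the intestine, had 5 of 26 in the top 10%, led by spp-5 (69.4 and 36.2), spp-3 (40.2 and 17.8) and spp-10 (26.5 and 25.6). Without NC replicate 2, 9 saposin-like genes were in the top 10%. Of the 26, spp-11 and spp-19 were undetected on both arrays.

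Antimicrobial peptide genes of the cnc, nlp, fip, fipr, abf and thn families covered almost the whole range of signals. Of 64 genes, 8, or 12.5%, were in the top 10% of both arrays, beside 8.24% of all ranked genes. Undetected on both were 13, or 20.3%, near the 23.6% of all ranked genes. The brightest were cnc-4 (73.7 and 36.4) and nlp-27 (74.4 and 35.1), both encoding short secreted peptides, and fipr-21 (42.5 and 18.2). All 17 genes named for infection or DAF-16 responses were well above background on both arrays. Among these, irg-5 gave 51.5 and 36.7 and dod-19 gave 24 and 28.1.

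C-type lectins, carbohydrate-binding proteins of which many respond to pathogens, ranged between the first 100 genes and the undetected ones. Of 243 genes, 118, or 48.6%, were undetected on both arrays, beside 23.6% of all ranked genes. In the top 10% of both were 11, or 4.53%, beside 8.24% of all ranked genes. Gene clec-87 (C25A1.8) was among the first 100 genes of the worm, with 140 and 130 and ranks 47 and 26. It was followed by clec-88 (77.9 and 64.7) and clec-146 (67.2 and 35.5). The family median was 0.0202 on NC replicate 1 and 0.0154 on NC replicate 2.

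Enzymes of detoxification were seldom bright. Cytochromes P450, which oxidize foreign compounds and lipids, had 57 of 77 genes well above background on both arrays and 19, or 24.7%, undetected on both, near the 23.6% of all ranked genes, with 0 in the top 10%. The highest was cyp-31A3 (7.66 and 7.81, ranks 2290 and 2065), which acts in the lipid layer of the eggshell, before cyp-44A1 (4.51 and 4.26) and cyp-14A5 (2.60 and 2.30). UDP-glucuronosyl transferases, which attach sugars to lipophilic compounds, had 55 of 67 genes well above background on both. Another 10, or 14.9%, were undetected on both, below the 23.6% of all ranked genes. In the top 10% of both arrays were 0, beside 8.24% of all ranked genes. Their 3 highest lay close together, with ugt-58 at 2.81 and 2.71, ugt-28 at 2.67 and 2.26, and ugt-29 at 1.91 and 1.84.

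Glutathione S-transferases, which conjugate compounds to glutathione, had 4 of 46 genes in the top 10% of both arrays. That is 8.7%, near the 8.24% of all ranked genes. These 4 were gst-7 (73.4 and 42.0), gst-1 (62.0 and 36.4), gst-24 (27.8 and 13.2) and gsto-2 (ranks 1160 and 1623). Another 4, gst-17, gst-18, gst-25 and gst-37, were undetected on both. The median of the family lay at the 54.3rd and 49.9th percentiles. ABC transporters, which export conjugated compounds, had 0 of 30 in the top 10%, with haf-2 highest at 5.12 and 7.56. Among short-chain dehydrogenases and flavin monooxygenases, 33 of 34 were well above background on both arrays, and dhs-11 (33.2 and 16) and dhs-22 (20.8 and 11.9) were in the top 10%.

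Many of the genes that the study discusses were dim in these control worms. Of 27 such genes, which include act-1, the study's reference gene for PCR, 15 were well above background on both NC arrays. Another 9, or 33.3%, were so on neither, beside 23.6% of all ranked genes. Many of the 27 were picked by the study for higher signal on remofuscin than on these same NC arrays. Such a choice favours genes of low NC signal, so these shares are no independent result about them. Not all of the 27 were dim, since gst-5 gave 9.33 and 3.8 and jun-1 gave 6.31 and 4.71. Among P450 genes, cyp-35C1 gave 0.405 and 0.31, and cyp-13A2 gave 0.0251 and 0.0269. Of the cyp-35A group, cyp-35A2 was the highest at 0.376 and 0.341, before cyp-35A4 (0.0829 and 0.0562) and cyp-35A3 (0.0551 and 0.0403). The genes cyp-35A1, cyp-35A5 and cyp-34A1 were undetected on both arrays, as were ugt-65, pgp-14, the lipase gene lipl-1, the lipid-binding lbp-8, nhr-234 and the aryl hydrocarbon receptor ahr-1. The lysosomal lipase lipl-4 (0.0257 and 0.018) and gst-28 (0.0246 and 0.00653) were well above background on NC replicate 1 alone. Gene nhr-210 (0.00803 and 0.0181) was so on NC replicate 2 alone. Detected on both were hlh-30 (0.201 and 0.421), the beta-oxidation gene ech-9 (0.177 and 0.146) and folt-2 (0.0603 and 0.0546). The nuclear receptor nhr-49, a regulator of fat metabolism, gave 4.90 and 7.95, against 1.78 and 1.62 for nhr-8 and 0.411 and 0.464 for nhr-80. These are signals of different probes, and their order is one of signal only.

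Stress-protein genes ranked high. All 14 small heat shock protein and hsp-70 genes were well above background on both arrays, and 7 were in the top 10%. Beside sip-1, hsp-16.1 gave 92.2 and 57.0 and hsp-16.41 gave 34.4 and 20.5. The hsp-16 genes are known as strongly heat-inducible chaperones. All 11 genes of superoxide dismutases, catalases and peroxiredoxins were well above background on both arrays. Among them, prdx-2 gave 73.4 and 103 and the cytosolic copper/zinc enzyme sod-1 gave 82.6 and 53.3. The 4 metal-binding genes were ftn-2 (33.1 and 18) and ftn-1 (7.15 and 3.55), which store iron, and mtl-1 (28 and 14.8) and mtl-2 (3.73 and 1.68), the metallothioneins.

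Genes for fatty acid desaturases and lipid-binding proteins ranked high. Of 24 such genes, 11 were in the top 10% of both arrays, with lbp-9 at 130 and 78.1, far-1 at 88.0 and 105 and far-2 at 74.2 and 65.2. The last 2 encode secreted proteins that bind fatty acids and retinol. Only lbp-8 of the 24 was undetected on both arrays, and the lipase and beta-oxidation genes given above, which are not on this list, were dim or undetected. Aspartic and cathepsin proteases, mostly intestinal, had 5 of 25 in the top 10% and 5 undetected on both arrays, or 20%, near the share of all genes. The highest were asp-1 (34.4 and 50.7), asp-5 (22.1 and 36.2) and asp-6 (17.8 and 26.0).

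Most markers of the main tissues were detected, as were most genes on the arrays. Of 30 genes in 5 marker lists, 28 were well above background on both arrays, beside 14203 of all 19813 ranked genes. Among intestinal markers, the actin act-5 was the highest (4.30 and 6.64), ges-1 gave 0.263 and 0.274 and the GATA factor elt-2 gave 0.304 and 0.297. The 6 body wall muscle markers had a median at the 47.2nd and 53.9th percentiles. Among them, myo-3 gave 0.287 and 0.715, unc-15 gave 0.236 and 0.566 and the myosin unc-54 gave 0.0901 and 0.242. The wider list of muscle myosin, actin and troponin genes, which also holds these genes, stood higher. Its median lay at the 81.1st and 79.0th percentiles, and 22 of 23 genes were well above background on both arrays. Its 6 genes in the top 10% of both included the actins act-3 (47.1 and 75.9) and act-1 (37.1 and 62.8). The giant muscle protein unc-22 (0.0191 and 0.0503) and the pharyngeal myosin myo-1 (0.00426 and 0.0175) were well above background on NC replicate 2 alone. Other pharyngeal markers included tnc-2 at 4.57 and 2.38 and pha-4 at 0.467 and 0.981. Among hypodermis markers the highest was elt-3 (3.65 and 3.40), and dpy-7 gave 0.0545 and 0.034. Synaptobrevin, snb-1, was the highest neuronal marker at ranks 1771 and 1378, and rab-3 gave 0.229 and 0.240.

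Most neuropeptide genes were detected, as were most genes of any kind, and most chemoreceptor genes were not. Of 30 flp genes, 28 were well above background on both arrays, with flp-1 (7.75 and 3.68), flp-22 (7.61 and 3.59) and flp-12 (6.06 and 3.07) the highest, and 0 were in the top 10%. Of 40 insulin-like peptide genes, 32, or 80%, were well above background on both, and ins-22 led with 12.7 and 5.85. The same count among all 19813 ranked genes was 14203. Undetected on both arrays were 2 flp genes, or 6.67%, and 4 insulin-like peptide genes, or 10%, beside 23.6% of all ranked genes. Chemoreceptors are expressed in few sensory neurons each. Of their 1576 ranked genes, 1305, or 82.8%, were undetected on both arrays, 164 were well above background on both, and 0 were in the top 10%. The highest were srw-86 (5.94 and 3.06), srr-4 (4.32 and 3.87) and str-176 (1.27 and 1.16).

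Chemoreceptors thus made up 27.9% of all 4684 genes that were undetected on both arrays. Of the 18237 other ranked genes, 18.5% were undetected on both. When the 120 families of at least 15 ranked genes that share a name stem were compared, 24 had more than 50% of their genes undetected on both arrays. All 19 chemoreceptor families of that size were among them, with shares between 66.2% for srd and 92.0% for srh. The other 5 were irld (40 of 57 genes), gtnt (37 of 58), oac (32 of 57), gcy (16 of 30) and srlf (16 of 30). In 22 of the 120 families no gene was undetected on both arrays, as in the rps, rpl, mrpl, msp and his families. These stem families were chosen after the values were seen. With the scanner software's less strict flag, positive and significant, 2169 genes in place of 4684 were below the limit on both arrays, and 724 of them were chemoreceptors.

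**Figure D3:**
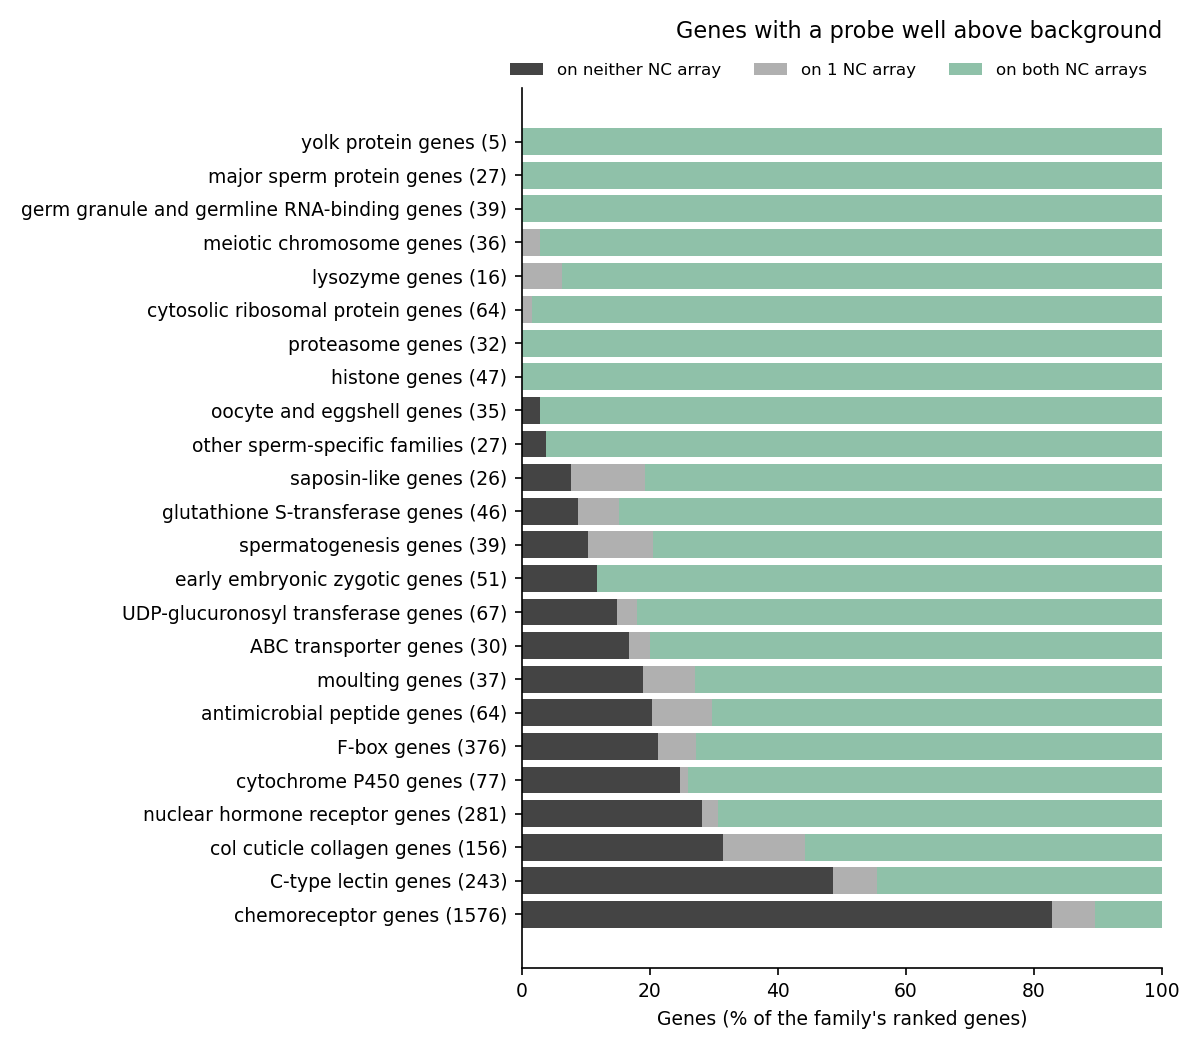
Share of each family's ranked genes with a probe well above background on neither (dark), 1 (grey) or both (green) NC arrays, for 24 families with the number of genes beside each name. The share on neither array runs between 0% for 8 families such as yolk and germ granule genes and 82.8% for chemoreceptors.

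Genes that regulate transcription and protein turnover were seldom bright. Nuclear hormone receptors had 0 of 281 genes in the top 10% and 79, or 28.1%, undetected on both arrays, beside 23.6% of all ranked genes. Highest were nhr-49, given above, nhr-86 (5.63 and 5.44) and nhr-61 (5.22 and 3.91). F-box genes of the fbxa, fbxb and fbxc families, which recruit substrates to ubiquitin ligases, had 2 of 376 in the top 10%. These 2 were fbxa-215 (ranks 1256 and 1509) and fbxc-44 (15 and 8.84). Undetected on both arrays were 80 F-box genes, or 21.3%, near the share of all ranked genes.

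The difference between the 2 NC arrays, 1 from each experiment, varied by gene family. Of 14190 genes whose ranked probe was well above background on both NC arrays, 842 (5.93%) were at least 2-fold higher on NC replicate 2, and 2112 (14.9%) were at least 2-fold lower. The median difference, replicate 2 minus replicate 1 on the log2 scale, was -0.25, so that the 75th percentile did not centre these genes. With each array set to its median, the median difference was -0.05 and the counts were 1577 higher and 798 lower, and with quantile normalization they were 1227 and 1296. The split between higher and lower therefore rests on the scaling, and families are compared below with the median of all these genes. Repeated spots within an array measure technical noise only and not the spread between separate samples. The 26 repeatedly printed probes that were well above background had a median SD of 0.057 on NC replicate 1 and 0.073 on NC replicate 2, on the log2 scale.

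The difference followed the length of the gene. Lengths include introns and come from a gene table of the WBcel235 assembly. In the shortest of 5 length bins of nearly equal size (median 775 bases, 2840 genes), the median log2 difference was -0.92, 42.1% of genes were at least 2-fold lower on NC replicate 2 and 0.669% were at least 2-fold higher. In the longest bin (median 7451 bases, 2838 genes), the median was 0.53, 2.26% were at least 2-fold lower and 18.6% at least 2-fold higher. The 3 bins between them had medians of -0.58, -0.25 and 0.10, in order of length. Across the 14190 genes, as a description, the difference and the length had a Spearman rho of 0.591, and all genes share the same 2 arrays. The same difference between the 2 remofuscin arrays, which come from the same 2 experiments, had medians of -0.31, -0.34, -0.25, -0.02 and 0.32 over the same bins. The cause of this relation was not tested.

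**Figure D4:**
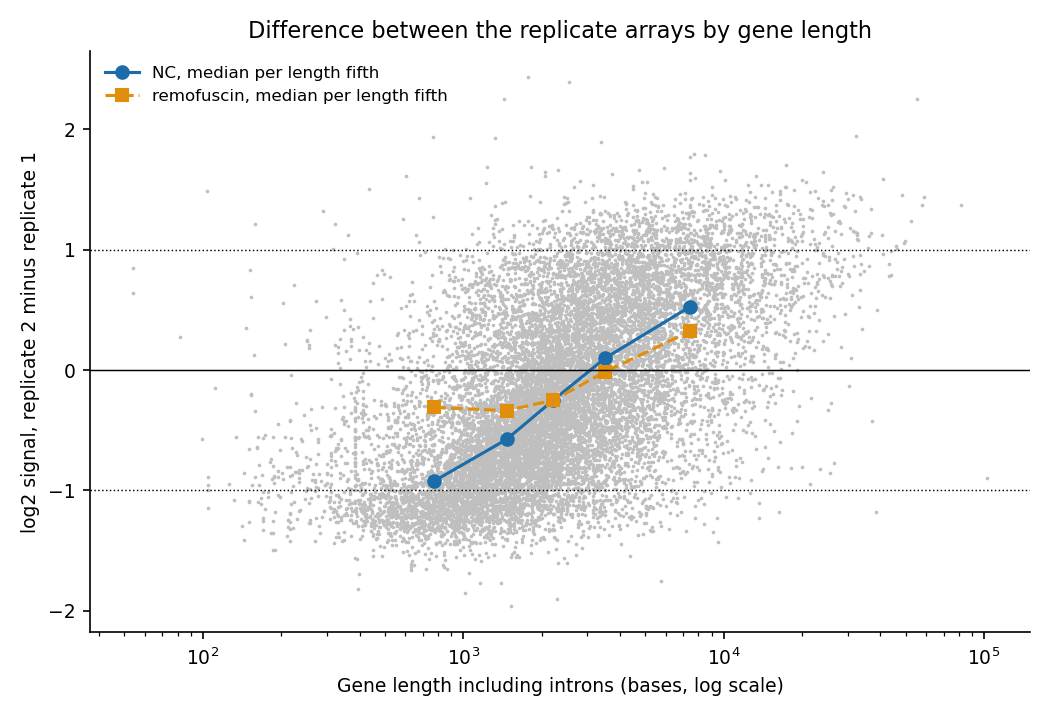
Difference in log2 signal between the replicate arrays, replicate 2 minus replicate 1, against gene length in bases (log axis) for 14190 genes well above background on both NC arrays (grey points). Lines join the medians of 5 length bins for NC (blue) and remofuscin (orange), and dotted lines mark 2-fold. The NC medians run between -0.92 for the shortest and 0.53 for the longest genes.

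Several families of long genes were relatively higher on NC replicate 2. Yolk genes, with a median length of 5197 bases, lay 1.05 above the median of all genes on the log2 scale, and they lay 0.57 above it between the remofuscin arrays. Body wall muscle markers stood 1.57 above, over 5 genes of which 4 were higher on NC replicate 2, basement membrane genes 1.12, moulting genes 0.76 and ABC transporters 0.74. Not all families of long genes did so, since cuticlins (median 4395 bases) lay 0.08 and neuron markers (6191 bases) 0.05 above all genes. Set against the median of all genes in their own length bins, body wall muscle markers lay 0.79 above, basement membrane genes 0.34, yolk genes 0.27 and moulting genes 0.05, while ABC transporters differed by -0.02, cuticlins by -0.26 and neuron markers by -0.73. The 39 germ granule genes, with a median length of 3039 bases, lay 1.02 above all genes and 0.71 above their length bins. With the 75th percentile scaling, 38 of 39 were higher on NC replicate 2, beside 5578 of the 14190 genes in all. For oocyte and eggshell genes, whose median length of 2082 bases lies in the middle bin, the values were 0.75 above all genes and 0.55 above their length bins.

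Several families of short genes were relatively lower on NC replicate 2. Antimicrobial peptide genes (median length 444 bases) lay 0.89 below the median of all genes (a relative difference of -0.89). With the 75th percentile scaling, 34 of 45, or 75.6%, were at least 2-fold lower, beside 42.1% of the shortest length bin and 14.9% of all genes. Set against their own length bins, the relative difference was -0.22. The smaller sperm families (median 327 bases) had the lowest value of all lists, -0.93 against all genes and -0.26 against their bins. For saposin-like genes the values were -0.83 and -0.19, for insulin-like peptides -0.71 and -0.06, for neuropeptide-like proteins -0.67 and -0.10, and for FMRFamide-like peptides -0.49 and -0.12. Glutathione S-transferases (median 1315 bases) and lysozymes (1169 bases), whose medians lie in the next length bin, as that of the FMRFamide-like peptides does, had -0.71 and -0.19, and -0.68 and -0.26. Between the remofuscin arrays, the relative differences against all genes were nearer to no difference. They were 0.01 for antimicrobial peptides, -0.03 for the smaller sperm families, -0.14 for saposin-like genes and -0.10 for insulin-like peptides. Neuropeptide-like proteins had -0.12 there, FMRFamide-like peptides -0.09, glutathione S-transferases -0.29 and lysozymes -0.18. Major sperm protein genes, at a median of 384 bases, had a relative difference of -0.48 against all genes and of 0.19 against their bins. Ribosomal protein genes (median 732 bases) had -0.14 and 0.49. The collagen, lectin, P450 and UDP-glucuronosyl transferase families had relative differences of -0.06, -0.09, 0.11 and 0.03 against all genes. The part of gene length in any family's difference was not tested beyond these values.

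**Figure D5:**
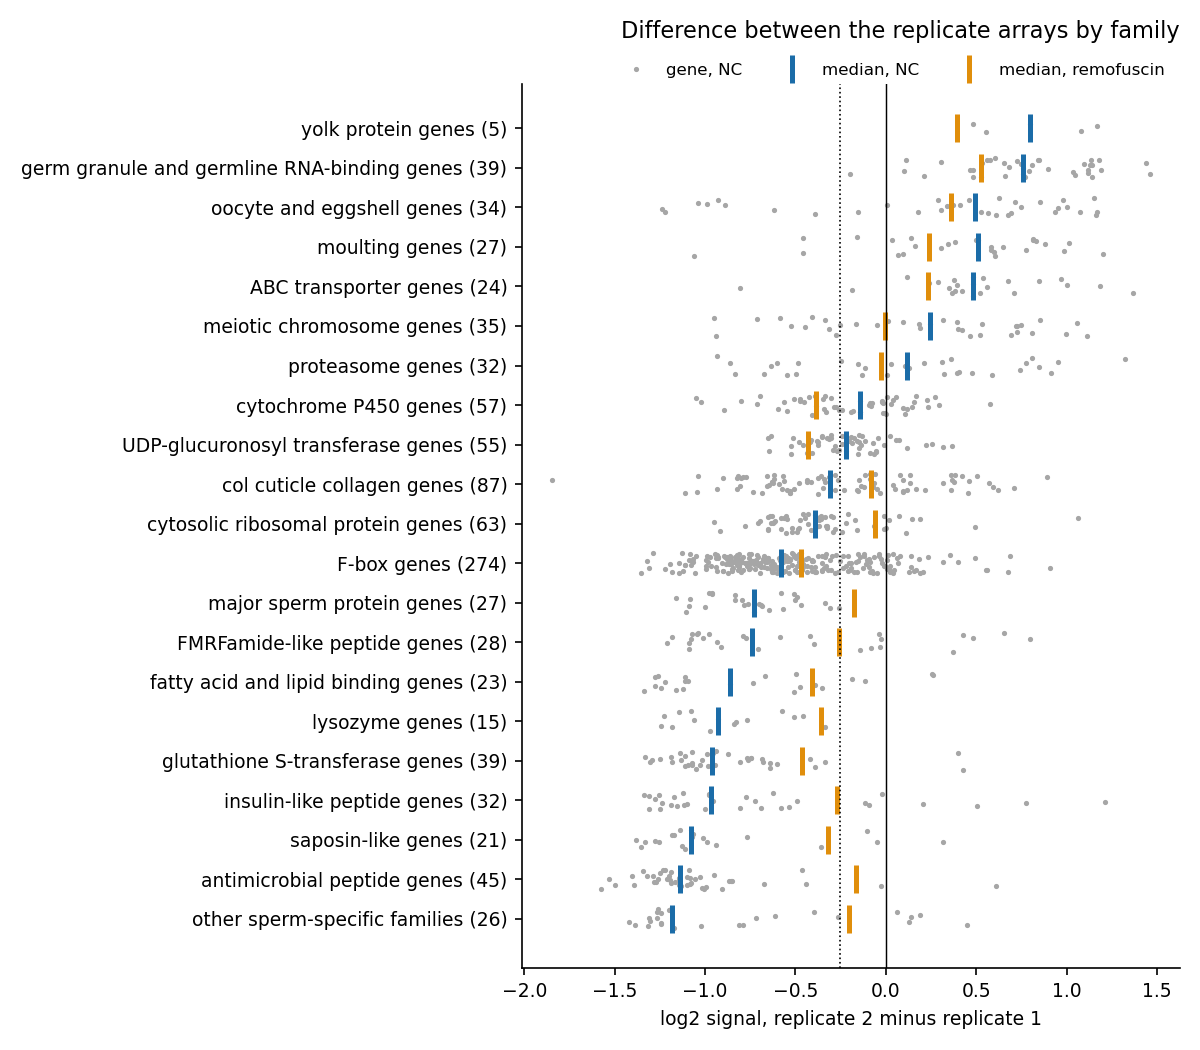
Difference in log2 signal, replicate 2 minus replicate 1, of each gene well above background on both NC arrays (grey points) in 21 families, with the family median for NC (blue bar) and remofuscin (orange bar). The solid line is 0 and the dotted line is the NC median of all genes, -0.25. NC medians run between 0.80 for yolk genes and -1.18 for the smaller sperm families.

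The largest single differences involved mostly dim genes. On NC replicate 2, srx-63, a chemoreceptor, was 5.39-fold higher (0.168 against 0.0312 on NC replicate 1), nfya-1, a subunit of a CCAAT-binding factor, was 5.24-fold higher, and unc-89, a giant sarcomere protein whose gene spans 55184 bases, was 4.77-fold higher. The others of the 10 were hlh-34, sos-1, F47B8.14, srbc-43, oac-18, lin-41 and gck-1, at between 4.75-fold and 3.44-fold. In the other direction, D2030.12 was 3.89-fold higher on NC replicate 1 (0.772, against 0.198 on NC replicate 2), Y65B4BL.7 was 3.73-fold higher, and the collagen col-10 was 3.60-fold higher (0.0645, against 0.0179 on NC replicate 2). Those that followed were R13D11.10, F35C12.3, srlf-28, clec-161, W02D3.12, Y53F4A.2 and F42C5.6, and W02D3.12 was the brightest of them, at 6.10 and 1.89.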

How the data were processed

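Gene expression was measured on 1-colour Agilent arrays of 2 NC and 2 remofuscin samples. The authors deposited the scanner output as intensity values, background-corrected by the image software (11.5.1.1 in the file headers) and unscaled between arrays. A deposited series table holds log2 values of the same arrays. In it, 99.98% of 43603 probes on each NC array lay within 0.01 of the log2 scanner intensity, with column medians of 5.842 and 6.024, so it is neither scaled nor centred.

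Control spots and outlier-marked spots (8 and 12 on the NC arrays) were dropped, repeated spots were averaged per probe, and each array's 75th percentile of log2 intensity was subtracted. Probes were named by sequence name or accession through the WBcel235 gene table, which left 9283 unnamed. Its gene lengths were used and its positions were not. Genes were ranked by the probe with the highest mean over both NC arrays. A gene was called undetected on an array if the software called no probe of it well above background there. No test was made within 1 group, and 2 arrays limit the precision.

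The arrays and the 49 gene lists were chosen with earlier results of these data known. One list, genes of the mitochondrial genome, matched no gene. Named genes were drawn from the first 30 by mean signal, the 3 highest of each list (all where it has at most 8), the 10 largest differences in each direction, and genes the study discusses. Others, named to spell out a small count or for their role, were chosen after their values were seen. The code was tested on simulated data. Python 3.11.15, pandas 2.3.3, numpy 2.4.6 and, for normexp (offset 50), R 4.3.3 with limma 3.58.1 were used. Alternatives were the mean over a gene's probes, normexp, the deposited table, outlier spots kept, another detection flag, median and quantile scaling, a filter on 1 array, and each array left out.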

Additional observations from a re-analysis of the deposited data

How the results depend on the processing

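Ranks do not depend on the scaling of an array, and with the deposited table or with outlier-marked spots kept, all counts of genes in the top 10% and not above background that were compared stayed within 1.5 times their values. With the mean of a gene's probes, 19 of the first 30 genes remained, 5 germ granule genes were in the top 10% in place of 8, and 1 cytochrome P450 gene in place of 0. With an array left out, the counts in the top 10% ran between 8 and 14 for germ granule genes, 3 and 5 for meiotic genes, and 5 and 9 for saposin-like genes. The positive and significant flag lowered the genes below the limit to 2169 in all, to 20 collagens, 48 C-type lectins, 4 antimicrobial peptide genes, 8 cytochromes P450, 1 glutathione S-transferase, 5 UDP-glucuronosyl transferases, 724 chemoreceptors, 40 nuclear hormone receptors and 35 F-box genes. Genes at least 2-fold apart were 447 higher and 1050 lower on NC replicate 2 with normexp (the cause was not tested), 1577 and 798 with median scaling, and 1296 lower with quantile normalization. Leaving out an array leaves no difference between arrays to compute. No paired analysis was possible because the results within NC come from no test. The remofuscin comparison, which the 2 experiments pair, was not analysed here. An undetected gene has only a bound, and with 2 arrays the spread itself is poorly known.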

Other observations

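Several families outside the described pathways ranked high. The 41 mrpl and 29 mrps genes, which encode mitochondrial ribosomal proteins, had medians at the 89.8th and 87.9th percentiles on NC replicate 1 and at the 84.2nd and 83.5th on NC replicate 2, and all were well above background on both. The 58 ttr genes, of transthyretin-related secreted proteins, had 11 in the top 10% of both arrays and 4 undetected on both. The 20 vha genes, of the vacuolar proton pump, had a median at the 85.6th and 86.9th percentiles, and 7 were in the top 10%.

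Hedgehog-related genes, which are known from cuticle-forming cells, were dim. Of 59 genes, 17, or 28.8%, were undetected on both NC arrays, beside 23.6% of all ranked genes. None was in the top 10% (0 genes), and grl-32 (2.05 and 1.38) was among the highest. Cuticlins had 24 of 35 genes well above background on both arrays and 8, or 22.9%, on neither, with cutl-20 (0.50 and 0.953) the highest. Of 64 ceh homeobox genes, 44 were well above background on both and 16, or 25%, on neither, and ceh-20 gave 3.89 and 4.97. The shares of cuticlins and ceh genes on neither array were thus near that of all genes.

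Of the 9283 probes without a gene name, 3770 were well above background on both NC arrays, and 4 were as bright as the 30 brightest named genes.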
